A study of Bombyx mori with 2 samples.

Results

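BGIBMGA013949 is the silkworm gene that the study names mucin, and it is described here through the sequence variant sites that the authors list in its transcripts. It was chosen by the study on its read level in the RNA-Seq libraries of the 2 strains, and for this report also by its number of variant sites, so neither is a result of the comparisons below. Its members were all rows of the SNP and INDEL tables whose gene column is BGIBMGA013949, which gave 35 of 47001 listed sites and 1 of 6641 genes with a site. The libraries were 1 of q-lp, a pigment mutant with quail markings that was obtained from 932VR, and 1 of 932VR, the plain wild-type strain. Both were made from the epidermis of 4th instar larvae 6 hours after molting, with epidermis taken from 3 silkworms per sample. Each table has a single set of value columns that names no library, and the sites are read here as those of both libraries together. No value can therefore be given for q-lp or for 932VR alone, no replicate exists, and the level of the gene in the 2 strains was not analysed here. For the same reason the tissue could not be checked against marker genes. Since the study reports the transcript as strongly lower in q-lp, the reads at its sites may be mostly those of the wild-type strain.

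Mucins are glycoproteins whose serine- and threonine-rich stretches carry many O-linked sugars. They are secreted or held at the apical surface of epithelia, where they form a hydrated, protective layer. Insects make them in the gut lining and in other epithelia that border a cuticle. The epidermis is such an epithelium, and at a larval molt it secretes the new cuticle under the old one.

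The study measured this transcript by qRT-PCR with a pair of primers, which are shown because they are the designed sequences that define the assayed transcript.
BGIBMGA013949 forward: acagagactacttacattcccgat
BGIBMGA013949 reverse: tttcaatttcggcagaagacgtt
The primers are 24 and 23 bases long. Without the genome sequence of the tables' build they were not placed on the gene, so whether a listed variant lies under either of them was not tested.

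The gene spans 5551 bp of SilkDB scaffold Bm_scaf29, from 272105 to 277655. Of its 35 sites, 34 were substitutions of a single base and 1 was an insertion of 1 base. This is 6.31 sites per kb of gene span, against a median of 0.842 per kb over all genes, and the gene stood at percentile 92.8 of this density. Sites can be listed only where reads lie, and the span counts any introns. The density was not corrected for either. By number of sites it stood at percentile 97.8, where the median gene had 4 sites, the highest had 166 and 142 other genes had as many or more. The tables list no site covered by more than 100 reads in any gene, so a variant in a more deeply covered stretch of the gene would not appear. The tables do not say which sites lie in exons, in introns or in untranslated regions, and they give no strand.

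Nearly every read at these sites carried the alternative base, that is, a base other than that of the SilkDB genome. The alternative share was 100% at 34 sites. At the remaining site, T2990C, 84 of 85 reads had the alternative base, a share of 98.8% (95% Wilson interval 93.6% to 99.8%). Each substitution is written as the reference base, the position counted from 1 at the annotated start of the gene along the scaffold, and the alternative base. Over all 35 sites the reads added up to 1294, of which 1 had the reference base. These are not 1294 separate molecules, since 1 read can cover several neighbouring sites, and the intervals cover counting error only. Coverage set how closely a share was fixed. Where no reference read was counted, the limit is given as 3 reads of the coverage. At G231T, with 13 reads, this allows a reference share of up to 23.1%, and at C2978T, with 78 reads, of up to 3.85%.

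Both alleles were called present at a site with at least 10 reads and an alternative share from 20% to 80%. In the mucin gene this held for 0 of 35 sites, which by the same limit of 3 counts allows up to 8.57% of its sites. Over all genes it held for 21.0% of 18174 sites. A share of at least 95% was found at 35 of 35 mucin sites, against 75.7% of the 18174 sites. Sites of 1 gene are linked and are not replicates, so the gene was also set beside other genes as a whole. Of 490 genes with at least 10 sites covered by at least 10 reads, 61.0% had no site with both alleles. A gene with fewer sites can more easily have none. Among the 48 genes with at least 30 such sites, 22 had a share of at least 95% at every one, the mucin gene included. The mucin gene thus belonged to the larger group among the 490 genes, but the 22 were the smaller group among the 48. In neither set was the absence of sites with both alleles particular to it.

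**Figure D1:**
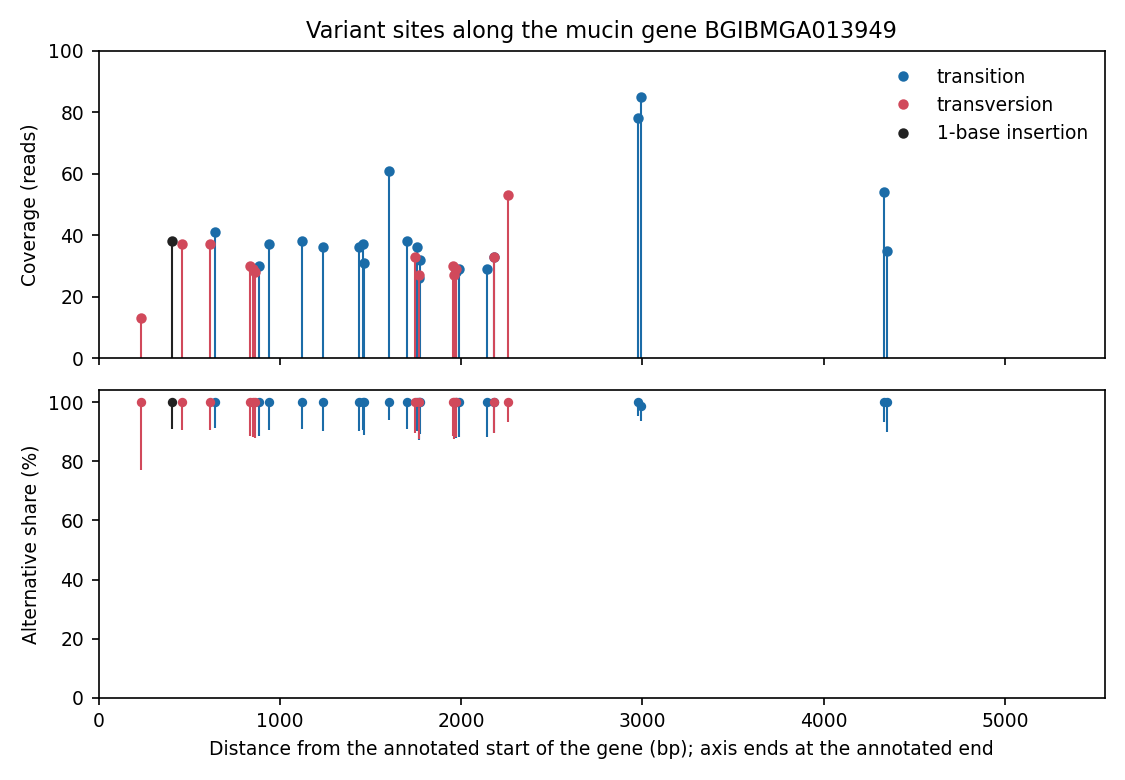
Coverage in reads (top) and alternative share in percent with 95% Wilson intervals (bottom) at the 35 sites of BGIBMGA013949, against the distance in bp from the annotated start. The sites crowd into the first 2258 bp at mostly 26 to 41 reads, the deepest site has 85 reads, and all shares lie at 98.8% or above.

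Coverage at the 35 sites ran from 13 to 85 reads with a median of 33 and an SD over sites of 14.0 reads. Among the 2995 genes with at least 5 sites, the median coverage of a gene had a median of 6.50 reads, and the mucin gene stood at percentile 93.7. Coverage was between 26 and 41 reads at 29 of the 35 sites. Coverage between sites is not listed. With the span cut into 4 equal parts, the first held 12 sites at 13 to 41 reads and the second 19 sites at 26 to 61 reads. The third held 2 sites, C2978T at 78 reads and T2990C at 85 reads, and the last held 2, C4334T at 54 and T4348C at 35 reads. Coverage could differ over short distances, as between the last pair, 14 bp apart. The lowest value was at the site nearest to the annotated start and the highest in the third part, and 5 sites had 53 to 85 reads.

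The sites were unevenly placed along the gene. From G231T to C2258A, a stretch of 2028 bp or 36.5% of the span, there were 31 sites, or 15.3 per kb. Only 4 sites lay beyond it. The longest distances between neighbouring sites were 1344 bp, 720 bp and 201 bp, and no site was listed in the first 230 bp or in the last 1203 bp. The median distance between neighbours was 31.5 bp, against a median of 63.0 bp over the 1475 genes with at least 10 sites, where the gene stood at percentile 15.6. The longest distance was 24.2% of the span, at percentile 41.6 of the same genes, so a long stretch with no listed site was common among them.

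When neighbours less than 100 bp apart were joined, the 35 sites formed 12 groups, of which 9 held at least 2 sites and together 32 sites. The largest group was that of 7 sites within 170 bp from A1604G to A1773G, followed by 5 sites within 36 bp from C1953A to T1988C and 5 within 106 bp from G836C to A941G. In the first of these, A1604G had 61 reads, G1703A 38, G1744C 33, G1754A 36, T1766C 26, A1767T 27 and A1773G 32. In the second, C1953A had 30 reads, C1963G 27, G1969C 29, T1973C 28 and T1988C 29. In the last, G836C had 30 reads, T851A 29, C860G 28, A887G 30 and A941G 37. All sites of these groups but A1604G thus had 26 to 38 reads. On 2 occasions neighbouring bases were both replaced, at T1766C with A1767T (26 and 27 reads) and at A2179T with T2180C (33 reads each). A pair of substitutions 1 bp apart was also found in 388 of the 1475 genes with at least 10 sites, this gene included.

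The single insertion lay at 402 bp from the start, position 272506 of the scaffold. The reference AG was listed as AGG, with 38 of 38 reads, which allows a reference share of up to 7.89%. An insertion of 1 base shifts the reading frame where it falls in coding sequence, but the tables do not place it in or out of an exon. It was 171 bp after G231T, which had 13 reads, and 59 bp before A461C, which had 37 reads. Indels were 2.86% of the sites of the gene and 3.15% of all sites. Among 1468 indels of all genes with 1 alternative, 69.3% changed the length by 1 base and 11.6% by a multiple of 3. At least 1 indel was listed in 112 of the 247 genes with 25 to 45 sites, this gene included.

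Transitions, which exchange A with G or C with T, made up 21 of the 34 substitutions, or 61.8% (95% Wilson interval 45.0% to 76.1%), against 66.6% of 45398 substitutions over all genes. The difference is inside the counting interval. With complementary changes counted as 1 class, 12 substitutions were A-to-G or T-to-C (35.3%, against 33.0% over all genes) and 9 were C-to-T or G-to-A (26.5%, against 33.6%). Among transversions, 5 were C-to-G or G-to-C (14.7%, interval 6.45% to 30.1%, against 7.55%), 3 A-to-T or T-to-A, 3 C-to-A or G-to-T and 2 A-to-C or T-to-G. For all 6 classes the share over all genes lay within the interval of the mucin gene. The most frequent single change was T-to-C, at 7 sites, followed by A-to-G and G-to-A at 5 each.

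Most substitutions of the mucin gene fell in 1 phase of a 3-base step. The leading phase is that with the most substitutions, picked from the same sites in every gene. The interval given below does not allow for this pick. In a protein-coding stretch, codons are 3 bases long and a change at the third base often leaves the amino acid as it is, so the phase of the sites was counted after the positions had been seen. Divided by 3, the scaffold position left a remainder of 0 at 23 of 34 substitutions (67.6%, 95% Wilson interval 50.8% to 80.9%), of 2 at 7 and of 1 at 4. The leading phase held 10 substitutions in a row, from G644A to G1457A. It held 20 of the 30 substitutions up to C2258A and 3 of the 4 beyond. In 487 genes with at least 20 substitutions the leading phase held a median of 50% of them, with a range of 33.3% to 100%, and 107 other genes were at the level of the mucin gene or above. Introns can shift the phase within a gene, and since neither strand nor frame is given, the leading phase was not assigned to a base of the codon.

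Within the leading phase 18 of 23 substitutions were transitions (78.3%, 95% Wilson interval 58.1% to 90.3%). In the other phases 3 of 11 were (27.3%, interval 9.75% to 56.6%). In the other genes with at least 20 substitutions, transitions were 69.5% of 8325 substitutions in the leading phase of each gene and 63.8% of 7175 in the other phases. With 11 substitutions outside the leading phase, the share in the mucin gene is loosely fixed, and no test was made because the phase was picked from the same sites.

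**Figure D2:**
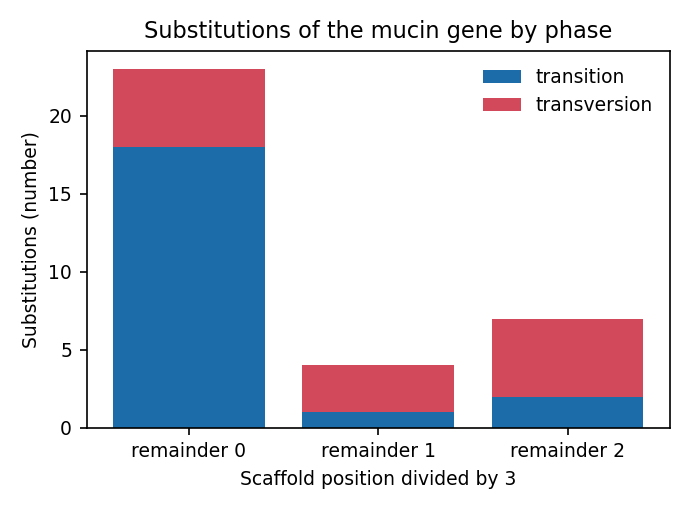
Number of substitutions of BGIBMGA013949 by the remainder of the scaffold position after division by 3, split into transitions and transversions. Remainder 0 holds 23 of the 34 substitutions, 18 of them transitions, while remainders 1 and 2 hold 4 and 7, mostly transversions.

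On Bm_scaf29, sites were listed in 53 genes, and the mucin gene was the first of them. No gene with a listed site lay before it, so its neighbours could be described on one side only. By number of sites it was second on the scaffold, where 1 gene had 42. BGIBMGA013950 began 2389 bp past the end of the mucin gene and had 7 sites at 6 to 15 reads. One of these, at 15 reads, had an alternative share of 13.3% (95% Wilson interval 3.74% to 37.9%), far below every site of the mucin gene. BGIBMGA013938, 40804 bp away, had 3 sites with 5 to 98 reads, of which the site with 5 reads was at 40%. BGIBMGA013937 had 4 sites at 2 or 3 reads, BGIBMGA013935 had 2 sites at 58 and 67 reads and BGIBMGA013957 had 1 site at 6 reads, all at 100%. None of the 9 sites of these 5 genes with at least 10 reads had both alleles.

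By the bounds of 20% to 80%, the nearest site with both alleles at a coverage of at least 10 reads was in BGIBMGA013899. It was 2745433 bp past the end of the gene. It had an alternative share of 45.8% at 24 reads (95% Wilson interval 27.9% to 64.9%). Up to that site the scaffold held 98 sites with at least 10 reads in 17 genes, 63 of them outside the mucin gene, and 97 of the 98 had a share of at least 95%. The exception was the site at 13.3% in BGIBMGA013950. From the site at 45.8% to the last listed position of the scaffold, 4194404, 49 of 97 sites in 14 genes had both alleles (50.5%, interval 40.7% to 60.3%). The mucin gene thus lay in the part of the scaffold where nearly all sites had only the alternative base. The border was set at a measured site, so the 2 parts were not tested against each other. At lower coverage the first part was not free of intermediate shares, as 4 of its 134 sites under 10 reads were at 20% to 80%, 3 of them in BGIBMGA013901. Counted from the start of the mucin gene, no site with at least 10 reads lay between 2293 kb and the site at 45.8%, at 2751 kb. BGIBMGA013901 lies in this stretch, so where in it sites with both alleles begin was not determined.

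**Figure D3:**
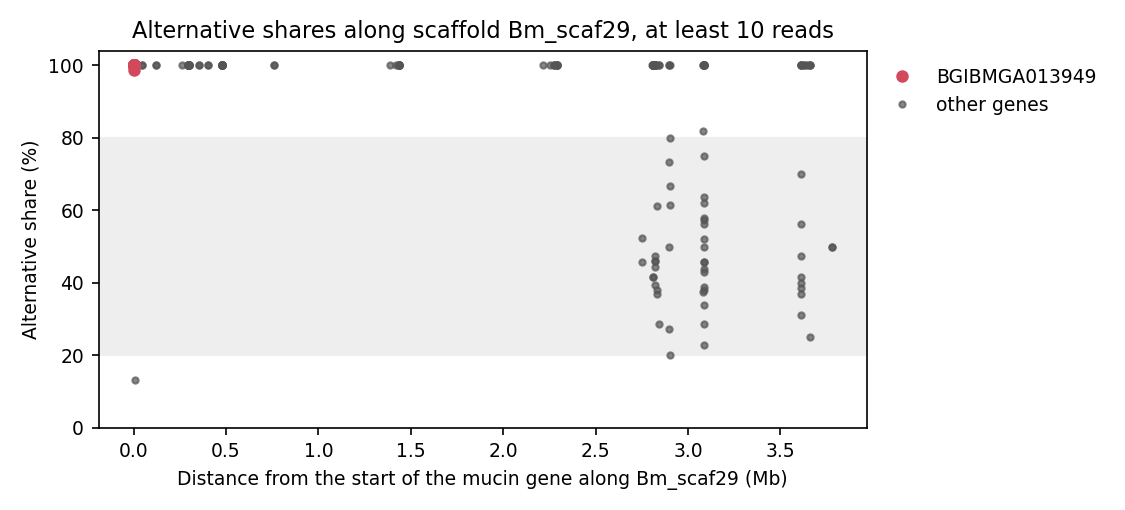
Alternative share in percent of all sites with at least 10 reads on Bm_scaf29, against the distance in Mb from the start of BGIBMGA013949, whose sites are in red. Sites in the grey band, 20% to 80%, begin 2.75 Mb past the gene, and the lone low point close to it is the site at 13.3% in BGIBMGA013950.

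The study picked the mucin gene together with 11 other genes for their strong difference between the libraries. Sites were listed in 7 of these 11, 31 in all. Alanine-tRNA ligase (BGIBMGA006216), which charges tRNA with alanine, was the only one of the 7 with sites that had both alleles, at all 4 of its sites with shares of 40.2% to 55.4%. Larval cuticle protein LCP-22 (BGIBMGA000332), a structural protein of the cuticle, had 8 sites at 2 to 81 reads, all at 100%, and LCP-12 (BGIBMGA002548) had 8 sites at 3 to 25 reads with shares of 85.7% to 100%. The non-muscle myosin heavy chain (BGIBMGA005536) and trypsin-1 (BGIBMGA013698), a protease, had 2 sites each, all at 100%. The glycine-rich cuticular protein BGIBMGA008212 had 2 sites at 11 and 22 reads, and both were at 100%. Nesprin-1 (BGIBMGA010472), which ties the nucleus to the cytoskeleton, had 5 sites, again all at 100%. They had 2 to 25 reads with a median of 3, and only 1 had at least 10 reads. In the mucin gene 0 of 35 sites with at least 10 reads had both alleles, against 4 of 19 over the 7 genes, all 4 in alanine-tRNA ligase.

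The genes most like the mucin gene were those with the smallest summed difference in percentile of 3 measures, the number of sites, their median coverage and the percent of sites with both alleles, over the 490 genes with at least 10 sites of at least 10 reads. The nearest was BGIBMGA004546 on Bm_scaf48, with 33 sites, a median of 31 reads and a summed difference of 5.41 percentile points. It was followed by BGIBMGA007922 (36 sites, a median of 27 reads), BGIBMGA004266 (34 sites, 50.5 reads), BGIBMGA003159 (40 sites, 29 reads) and BGIBMGA005680 (45 sites, 32 reads). The 5 genes had no site with both alleles, which the choice by that percent fixed in advance. The mucin gene had 6.31 sites per kb of span, against 1.20 per kb in BGIBMGA004546 and 19.7 per kb in BGIBMGA004266, the lowest and the highest of the 5.

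**Figure D4:**
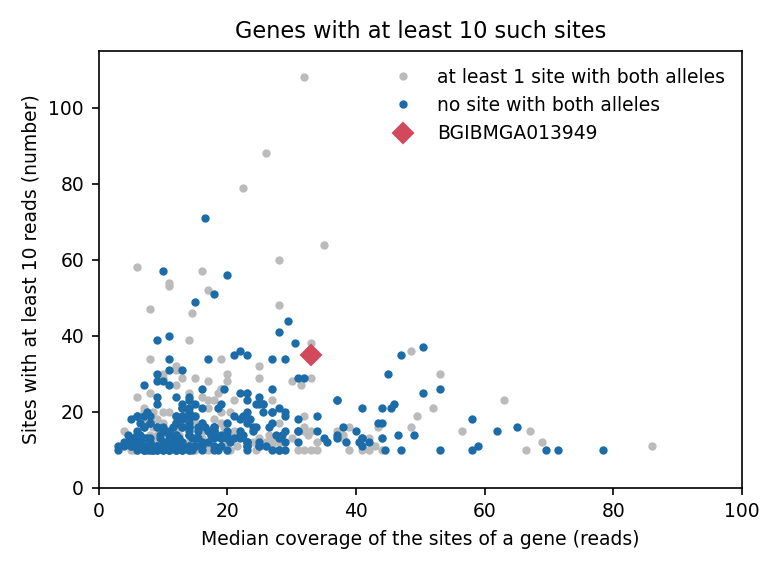
Number of sites with at least 10 reads against the median coverage in reads over all listed sites, 1 point for each of 490 genes with at least 10 such sites. BGIBMGA013949, the red diamond at 35 sites and 33 reads, lies among genes with no site with both alleles (blue) and genes with at least 1 (grey).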

How the data were processed

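The authors sequenced mRNA of the epidermis on a HiSeq 2500, 1 library of q-lp and 1 of 932VR, filtered the reads and aligned them to the silkworm genome of SilkDB. The variant caller, its filters and all versions are not given in the sources used here. In the deposited tables, Coverage is a count of reads at a site and Frequency is the percent of these reads with the alternative base. Reads of each base were computed from these 2 columns. The 43 rows that repeat a site in a second gene were counted once for all sites. Intervals are 95% Wilson intervals, and a count of 0 was set against 3 counts. No test was run, since no replicate or value per library was at hand. Python 3.11.15, pandas 2.3.3 and numpy 2.4.6 were used. The calls were tested on simulated data in which sites with both alleles had equal expected shares of each. Calls at unequal shares were not tested.

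The rule for named genes took the mucin gene, the 5 nearest genes with sites on each side of it (none were listed before it), the other 11 strongly different genes of the study (7 had sites and are named) and the 5 most like genes. Any other gene named was chosen after its values were seen. The gene, the lists and the measures were chosen with earlier results of these data known. RefSeq gene tables held 0 of the gene IDs, so the name mucin is that of the study. RPKM and qRT-PCR values of the study were not used, only its statement that the transcript was lower in q-lp. Alternatives were a coverage minimum of 5, 10 or 20 reads, other bounds of the allele share, substitutions alone and 10 flanking genes.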

Additional observations from a re-analysis of the deposited data

How the results depend on the processing

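Of 20 alternatives computed for 7 results on the mucin gene and its flanking genes, all 20 gave a value within the counting interval, the SD over sites or 1.5 times the count. For 6 of them this was given, since the lowest coverage in the gene was 13 reads and minimums of 5 or 10 reads kept every site. The 8 alternatives of the allele shares had little room to move, as every share was at least 98.8%. At a minimum of 20 reads the gene kept 34 sites, with a median of 34 reads, a median spacing of 28 bp and 63.6% transitions. No site of the mucin gene had both alleles with bounds of 10% to 90% or of 30% to 70%. The share over all genes was then 23.8% and 15.2%. The same held for the mucin gene at minimums of 5 and 20 reads, where the share over all genes was 18.9% and 21.6%. With 10 flanking genes, 0 of 26 sites had both alleles. The bounds were not varied for the flanking genes, where the site at 13.3% in BGIBMGA013950 would be called at 10% to 90%. The number of indels and the other strongly different genes had no alternative. Depth limits what a share of 100% can show, since a reference share of up to 23.1% at 13 reads and 3.85% at 78 reads is not detectable, and sites above 100 reads are not listed. The columns were read as both libraries together, and whether every site holds reads of both was not tested. The study reports this transcript as strongly lower in q-lp. On that report most reads at these sites would come from the wild-type library, so a share of 100% says little about the allele in q-lp. No paired analysis was possible because each strain had 1 library.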

Other observations

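Among the 48 genes with at least 30 sites covered by at least 10 reads, 22 had an alternative share of at least 95% at every such site, the mucin gene included. BGIBMGA012488 had the most, 71 sites all at 100%, on Bm_scaf56 from 179966 to 201173. BGIBMGA009816 had 51 and BGIBMGA009743 had 41, again all at 100%. BGIBMGA003159, one of the genes most like the mucin gene, and BGIBMGA003002 lie on the same scaffold, Bm_scaf13, from 4318395 to 4323052 and from 4358011 to 4375650, with 34 and 38 sites at 100%.

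On Bm_scaf29 the sites with both alleles were spread over 11 genes, of which BGIBMGA014000, from 3337237 to 3359217, had 18 among its 28 sites with at least 10 reads, and BGIBMGA013891 had 8 of 12. BGIBMGA013898 had 2 of 15. All genes of this section other than BGIBMGA003159 and the mucin gene were named after their values had been seen.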
